A study of Caenorhabditis elegans with 24 samples.

Results

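Histones are the small basic proteins that package DNA into nucleosomes. Each nucleosome holds DNA around a core of H2A, H2B, H3 and H4, and a linker histone, H1, binds the DNA between cores. In animals most core histone genes are short, lack introns and lie in many near-identical copies. Their mRNAs are made while DNA is being copied and usually end in a stem-loop in place of a poly(A) tail. Replacement variants such as H3.3 and H2A.Z are made from genes with introns whose mRNAs are polyadenylated, and they enter chromatin outside replication. An adult hermaphrodite of Caenorhabditis elegans has no dividing somatic cells, so its dividing nuclei lie in the germline and in the embryos it carries.

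The histone genes described here are the genes of the deposited count table whose symbols begin with his, hil or htz followed by a number and that reached at least 10 counts in at least 6 of the 24 libraries. Of 81 such symbols among 46778 genes in the table, 41 passed this minimum. At the edge of the minimum, his-57 reached 10 counts in 9 libraries and his-2 in 11, while his-8, with 4, and his-25, with 2, were left out. Of the 41 genes, 31 reached 10 counts in every library. The other 10 reached it in only some.

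The study examined how the stomatin UNC-1 and the nuclear receptor NHR-1 alter polyglutamine aggregation in muscle. RNA was taken from pooled whole young adults grown at 20 °C, in 6 biological replicates for each of 4 genotypes. The double mutant, with both alleles, and the single mutants unc-1(vlt10) and nhr-1(vlt16) were set against 40Q::YFP animals of strain AM141 with neither allele, here 40Q. The unc-54 promoter, active in muscle, drives a YFP tagged with 40 glutamines in all 4 genotypes, so the animals titled wildtype also carry the transgene. The allele vlt10 came from chemical mutagenesis, and nhr-1 was altered by CRISPR/Cas9. Libraries held 19098458 to 30467364 counts on genes, with 26646628 or more in each double mutant library. The mutated genes followed the labels. The transcript of unc-1 was at 0.812 to 1.02 CPM (a gene's counts relative to the library's total, scaled by the trimmed mean of M-values, TMM) in double mutants and 0.652 to 1.45 CPM in unc-1(vlt10), against 6.55 to 9.51 CPM in 40Q, and nhr-1 was at 12.4 to 16.9 CPM in double mutants and 11.4 to 16.4 CPM in nhr-1(vlt16), against 25.4 to 29.9 CPM in 40Q.

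The mRNA was enriched on oligo(dT) beads, so transcripts without a poly(A) tail were sampled only in part, and the levels below are those of the captured RNA. The 41 genes took between 0.182% and 0.194% of counts in double mutants, 0.198% to 0.207% in unc-1(vlt10) and 0.178% to 0.192% in nhr-1(vlt16), against 0.162% to 0.173% in 40Q. All 9 linker genes were among the 41, together with htz-1 (H2A.Z), 4 of 5 H3.3 and H3-like genes, 7 of 17 H2A genes, 4 of 17 H2B genes, 8 of 16 H3 genes and 8 of 16 H4 genes. These types were assigned from background knowledge of each symbol. In the annotation (WBcel235, Ensembl), 16 of 16 H4 genes had a coding length of 312 bases, 16 of 17 H2A genes 384 bases and 15 of 16 H3 genes 411 bases. The 40 genes left out held 1143 counts in all over the 24 libraries. In the annotation, 36 of the 81 genes shared their name with another gene, as near-identical copies do. Of these 36, 4 were among the 41, against 37 of the 45 genes with a name of their own. How counting treated reads that match several copies is not given in the sources used here, so the values of those 4 (his-45, his-47, his-57 and his-66) are uncertain. Of 62 core genes with 1 exon, 39 were left out and 8 had no counts at all. The core values and sums below may also miss reads that match several copies, which was not tested.

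The mean level per length over all libraries ran from 0.613 (hil-8) to 644 (htz-1) FPKM (fragments scaled by gene length and depth, as deposited) among the 41 genes. The H2A.Z gene htz-1 had the highest mean, at 669 ± 29.9 in double mutants, 683 ± 22.4 in unc-1(vlt10) and 668 ± 28.3 in nhr-1(vlt16), against 558 ± 25.3 in 40Q (SD, n = 6 each). The H3.3 gene his-72 followed, at 351 ± 10.2 FPKM in double mutants, 401 ± 12.8 in unc-1(vlt10) and 342 ± 10.8 in nhr-1(vlt16), against 309 ± 14.01 in 40Q. In the remaining types the highest mean over all libraries belonged to hil-4 (H1, 259.9 FPKM), his-37 (H4, 163 FPKM), his-35 (H2A, 114 FPKM), his-41 (H2B, 25.3 FPKM) and his-32 (H3, 5.52 FPKM). The leading genes were thus genes with introns in every type but H3, where no gene measured here has one. Core genes of a single exon had mean FPKM between 0.738 and 30.2, with a median of 3.10 over 23 genes, and the highest of them was the H2A gene his-68.

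**Figure D1:**
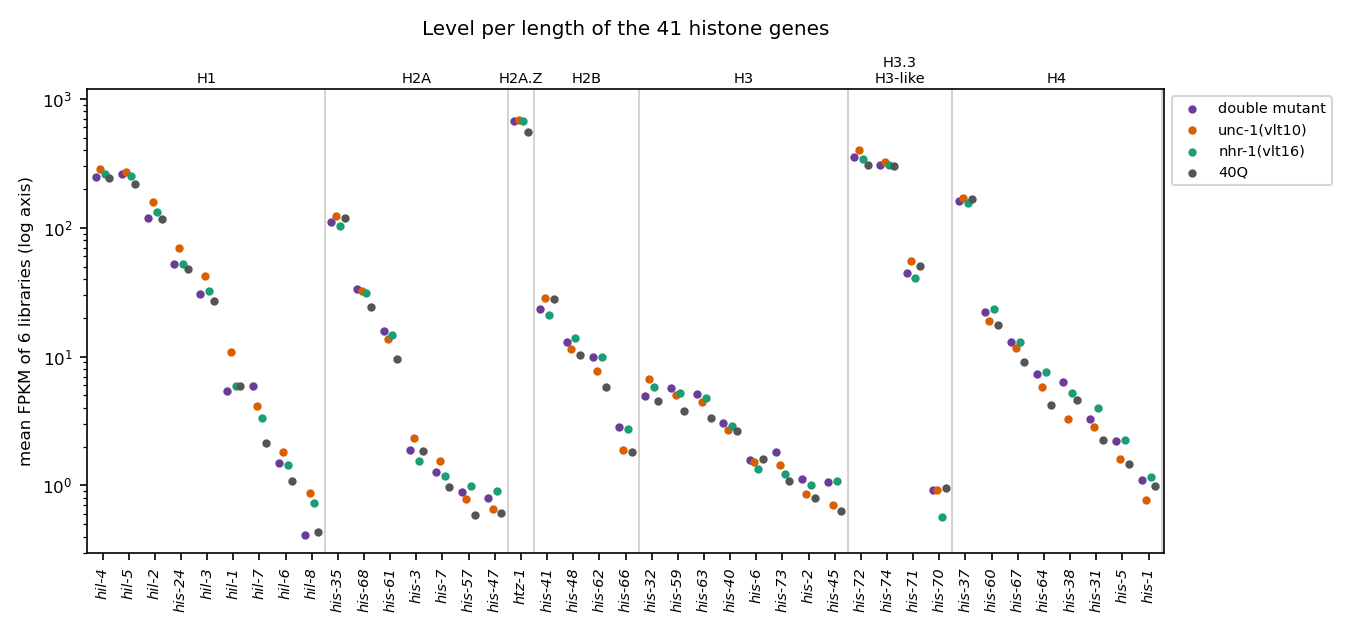
Mean FPKM of 6 libraries (vertical, log axis) for each of the 41 histone genes, grouped by type and ordered within it by level; points are the double mutant, unc-1(vlt10), nhr-1(vlt16) and 40Q. The H2A.Z gene htz-1 lies highest, at 558 to 683 FPKM, and the means over all libraries of H2A, H2B, H3 and H4 genes reach at most 30.2 FPKM, apart from his-35 and his-37.

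Each gene was tested across the 4 genotypes with edgeR over 14865 genes, and rose or fell is used for an adjusted p below 0.05. All 41 histone genes passed the low-count filter of that test. In unc-1(vlt10) against 40Q, 19 histone genes (46.3%) rose and 1 (2.44%) fell, where 25.1% of all tested genes rose and 22.6% fell. In nhr-1(vlt16) against 40Q, 19 rose and 5 (12.2%) fell, where 20.5% of all genes rose and 22% fell, 42.5% in all. In the double mutant against 40Q, 18 (43.9%) rose and 3 (7.32%) fell, where 14.9% of all genes rose and 17.3% fell, 32.2% in all. These 3 comparisons share the same 40Q libraries, whose column names begin with A where those of all mutants begin with R. What this difference stands for is not stated, so changes shared by the 3 mutants cannot be told apart from it. The median log2 fold change of the 41 genes was 0.28 in unc-1(vlt10), 0.24 in nhr-1(vlt16) and 0.28 in the double mutant, against medians of 0.02, -0.0042 and -0.0025 over all genes tested in the same comparisons.

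Few of these changes reached 2-fold. With the added requirement of a fold above 2, edgeR and DESeq2 each called 0 of the 41 genes in unc-1(vlt10), where 5.95% of all genes were called, and 0 in nhr-1(vlt16), where 2.70% were. At an unadjusted p below 0.05 without the fold requirement, edgeR gave 21 and 26 of the 41 genes in these comparisons. After adjustment 47.8% and 42.5% of all genes passed, and the share of all genes at the unadjusted p is not given here. Only hil-7 passed in the double mutant against 40Q (2.02% of all genes). Only hil-8 passed in the double mutant against unc-1(vlt10) (6.00% of all genes) and in the interaction of the alleles (8.84% of all genes).

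**Figure D2:**
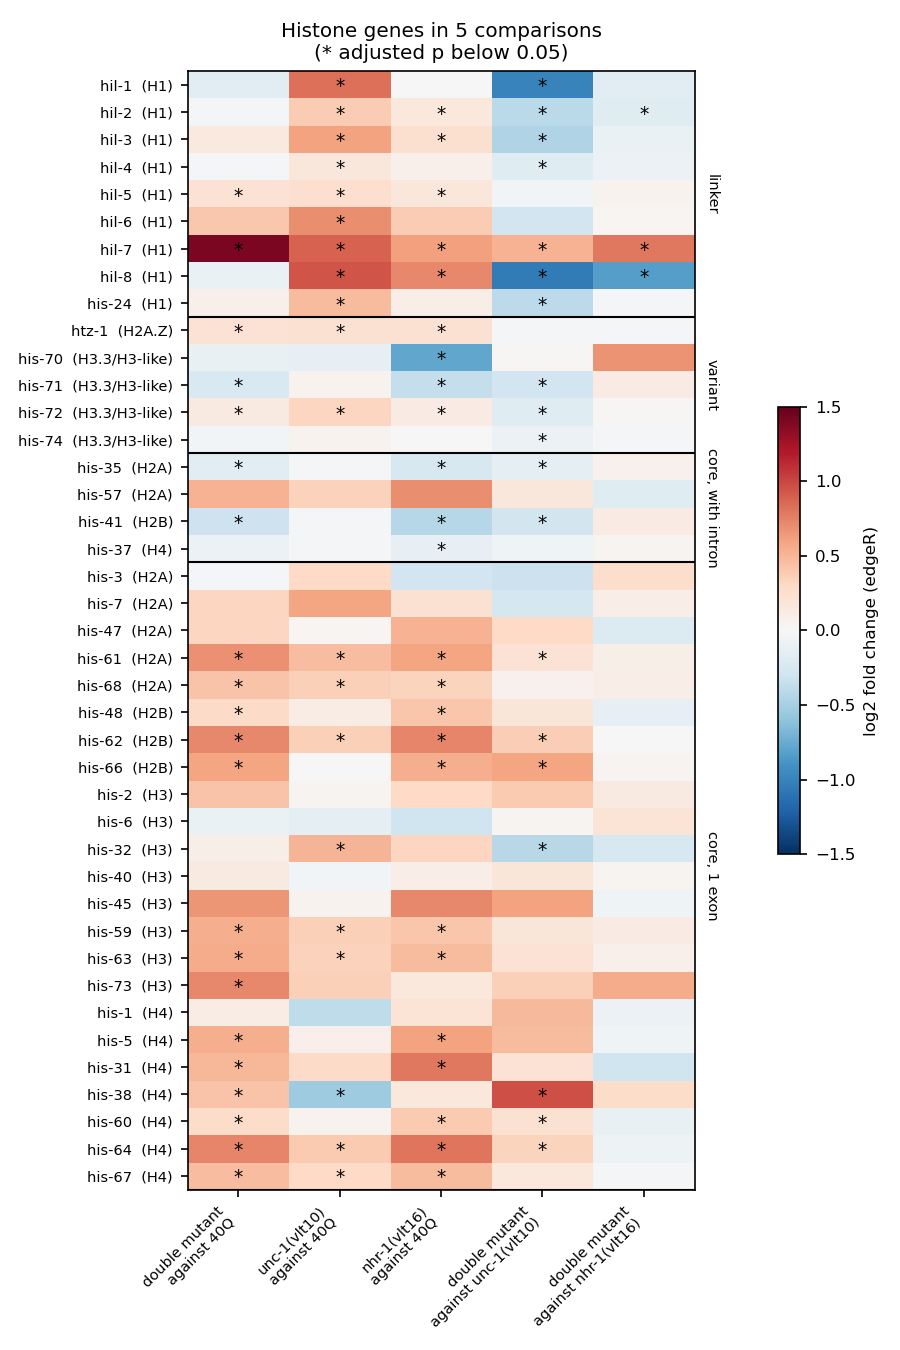
Log2 fold change (edgeR, colour, red higher in the first-named genotype) of the 41 histone genes (rows, grouped as linker, variant, core with intron and core of 1 exon) in 5 comparisons (columns); an asterisk marks an adjusted p below 0.05. The linker rows are red in unc-1(vlt10) against 40Q, where 9 of 9 rose, and 14 of 23 single-exon core rows carry an asterisk in the double mutant against 40Q.

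Linker histones bind between nucleosomes and favour compaction of the chromatin fibre. All 9 linker genes rose in unc-1(vlt10) against 40Q, with log2 fold changes of 0.17 to 0.94 and a median of 0.60. In nhr-1(vlt16), 5 of the 9 rose (hil-2, hil-3, hil-5, hil-7 and hil-8) and none fell, with a median of 0.17. In the double mutant, hil-5 and hil-7 rose and the other 7 did not pass, with a median of 0.08. Set directly against unc-1(vlt10), the double mutant had lower levels of 6 linker genes (hil-1, hil-2, hil-3, hil-4, hil-8 and his-24) and a higher level of hil-7, where 21.7% of all genes fell and 21.6% rose. Over all 41 genes in that comparison 12 fell and 7 rose, 19 in all, where 43.3% of all genes passed in either direction.

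The gene hil-1 showed this pattern in every library. Its lowest, median and highest levels were 3.99, 4.86 and 5.57 CPM in double mutants, 7.37, 10.1 and 12.1 CPM in unc-1(vlt10) and 4.46, 5.33 and 6.61 CPM in nhr-1(vlt16), against 4.61, 5.57 and 6.55 CPM in 40Q. All 6 unc-1(vlt10) libraries lay above all libraries of the other 3 genotypes, which overlapped with each other. The log2 fold change of hil-1 was 0.82 ± 0.12 (SE) in unc-1(vlt10) against 40Q (adjusted p = 5.74e-07) and -0.996 ± 0.11 in the double mutant against unc-1(vlt10) (adjusted p = 1.08e-08), a 1.99-fold decrease. In nhr-1(vlt16) against 40Q it was -0.0094 ± 0.12 (adjusted p = 0.959).

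Of the more abundant linker genes, hil-3, his-24, hil-2 and hil-4 moved in the same direction by smaller amounts. The abundant hil-5 did not follow this pattern, since its double mutant libraries stayed above all 40Q libraries. It ran from 218 to 241 CPM in double mutants and 224 to 239 CPM in unc-1(vlt10), against 181 to 213 CPM in 40Q. The gene hil-3 ranged over 24.8, 26.7 and 28.5 CPM (lowest, median, highest) in double mutants, 33.3, 36.3 and 40.9 CPM in unc-1(vlt10) and 27.1, 28.4 and 29.6 CPM in nhr-1(vlt16), against 19.9, 25.2 and 26.4 CPM in 40Q. Its unc-1(vlt10) libraries lay above all others, and its nhr-1(vlt16) libraries also lay above all 40Q libraries. Its log2 fold changes against 40Q were 0.60 ± 0.06 in unc-1(vlt10) (adjusted p = 8.47e-10), 0.24 ± 0.06 in nhr-1(vlt16), at an adjusted p of 0.00241, and 0.14 ± 0.06 in the double mutant (adjusted p = 0.0706).

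The gene his-24, an H1 known in this animal for a role in germline gene silencing, ranged over 44.5, 47.3 and 50.3 CPM in double mutants, 54.5, 64.5 and 68.5 CPM in unc-1(vlt10) and 44.5, 47.8 and 53.6 CPM in nhr-1(vlt16), against 38.8, 44.5 and 50.5 CPM in 40Q. Only the unc-1(vlt10) libraries were separate from those of 40Q. The change there was 0.47 ± 0.06 on the log2 scale (adjusted p = 8.26e-08), and against unc-1(vlt10) the double mutant was at -0.40 ± 0.06 (adjusted p = 1.3e-06). For hil-2 the corresponding values were 0.39 ± 0.05 (adjusted p = 4.9e-07) and -0.41 ± 0.05 (adjusted p = 1.35e-07). The linker gene of highest FPKM, hil-4, had the smallest change of the 9 in unc-1(vlt10), at 0.17 ± 0.04 (adjusted p = 0.000323), and was at -0.19 ± 0.04 (adjusted p = 8.52e-05) in the double mutant against unc-1(vlt10).

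The 3 linker genes of lowest level behaved differently from each other. The gene hil-7 ranged over 2.88, 3.01 and 3.68 CPM in double mutants, 1.62, 2.30 and 2.79 CPM in unc-1(vlt10) and 0.739, 1.73 and 3.38 CPM in nhr-1(vlt16), against 0.902, 1.18 and 1.54 CPM in 40Q. Double mutant libraries lay above all unc-1(vlt10) and all 40Q libraries, while the nhr-1(vlt16) libraries were spread across the whole range. Against 40Q its log2 fold change was 1.41 ± 0.22 in the double mutant (adjusted p = 8.89e-06, 2.65-fold), 0.88 ± 0.23 in unc-1(vlt10) (adjusted p = 0.00202) and 0.62 ± 0.24 in nhr-1(vlt16) (adjusted p = 0.035). The value in nhr-1(vlt16) passed in the test of all libraries and not in several alternatives, for example without nhr-1(vlt16) replicate 6 (0.53, adjusted p = 0.0931).

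The gene hil-8 ranged over 0.236, 0.617 and 0.738 CPM in double mutants, 0.821, 1.13 and 1.63 CPM in unc-1(vlt10) and 0.727, 1.01 and 1.237 CPM in nhr-1(vlt16), against 0.437, 0.592 and 0.854 CPM in 40Q, from 7 to 35 counts a library. All double mutant libraries lay below all unc-1(vlt10) libraries, and 5 of 6 unc-1(vlt10) and 4 of 6 nhr-1(vlt16) libraries lay above all 40Q libraries. Its log2 fold change was 0.94 ± 0.24 in unc-1(vlt10) against 40Q (adjusted p = 0.00177), 0.72 ± 0.25 in nhr-1(vlt16) against 40Q (adjusted p = 0.0196) and -1.05 ± 0.23 in the double mutant against unc-1(vlt10) (adjusted p = 0.000448). Without nhr-1(vlt16) replicate 6 the second value was 0.65 (adjusted p = 0.0511). The gene hil-6, at 10 to 30 counts a library, rose only in unc-1(vlt10) against 40Q among the 5 comparisons (0.69 ± 0.22, adjusted p = 0.0101).

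**Figure D3:**
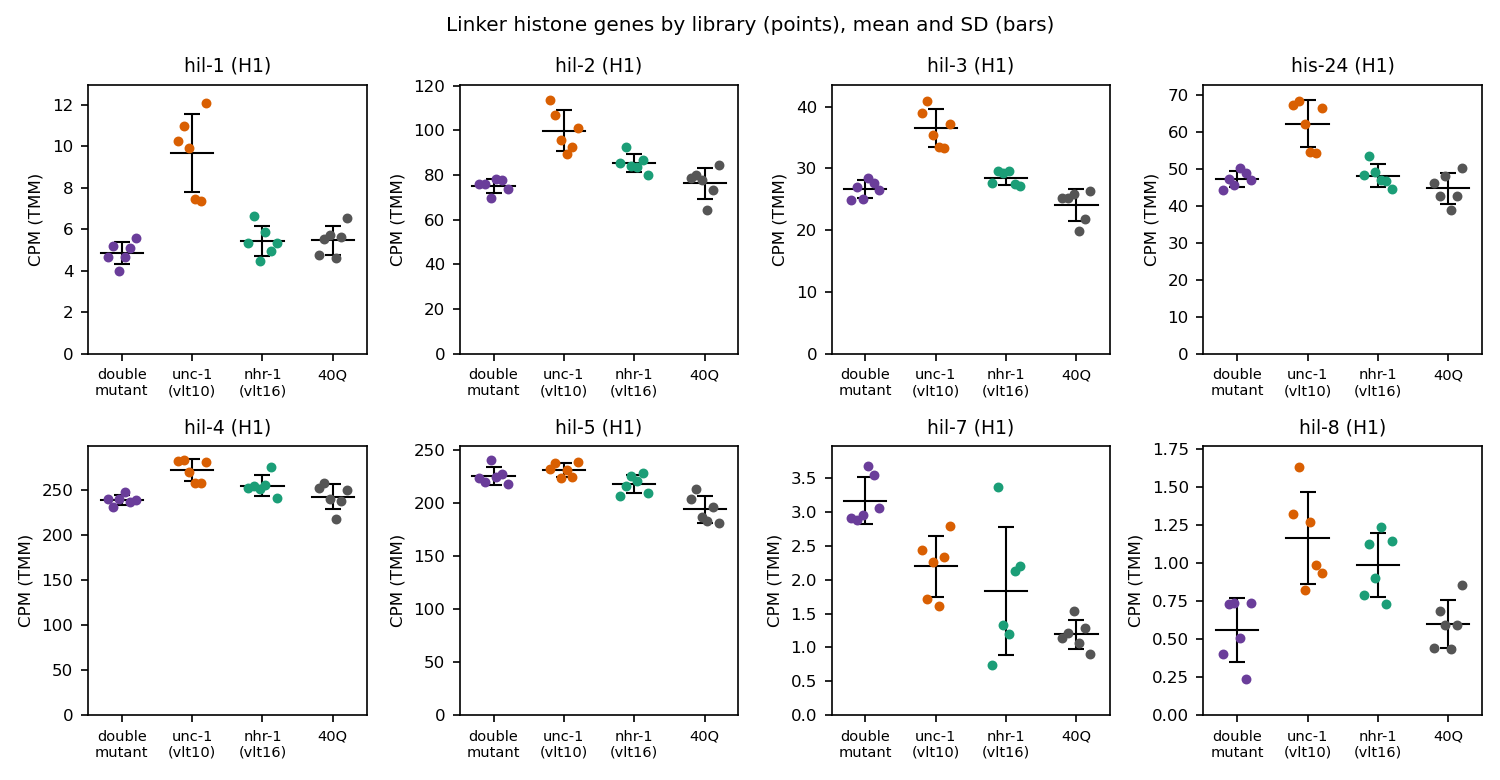
TMM-scaled CPM in each of 6 libraries a genotype (points) with mean and SD (bars) for 8 linker genes; genotypes run double mutant, unc-1(vlt10), nhr-1(vlt16), 40Q and each vertical axis starts at 0. For hil-1 the unc-1(vlt10) points, 7.37 to 12.1 CPM, lie above all other points, and for hil-7 the double mutant points, 2.88 to 3.68 CPM, lie above those of 40Q.

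Summed over the 9 linker genes, counts came to 611 to 639 CPM in double mutants, 675 to 754 CPM in unc-1(vlt10) and 612 to 673 CPM in nhr-1(vlt16), against 531 to 627 CPM in 40Q. The unc-1(vlt10) sums were separate from those of 40Q and of the double mutant. Of the nhr-1(vlt16) sums 5 of 6, and of the double mutant sums 3 of 6, lay above all 40Q sums. The ratio of mean sums against 40Q was 1.06 for the double mutant, 1.21 for unc-1(vlt10) and 1.09 for nhr-1(vlt16), and hil-4 alone supplied 38.01% to 41.15% of the sum in each genotype.

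The variant genes that passed against 40Q had log2 fold changes between -0.36 and 0.32, apart from his-70. The gene htz-1, whose H2A.Z marks promoters and is needed for development, rose in all 3 mutants against 40Q, by 0.23 ± 0.04 in unc-1(vlt10) (adjusted p = 8.75e-06), 0.23 ± 0.04 in nhr-1(vlt16), at an adjusted p of 2.02e-05, and 0.21 ± 0.04 in the double mutant (adjusted p = 8.04e-05). Its lowest, median and highest levels were 527, 576 and 608 CPM in double mutants, 556, 577 and 618 CPM in unc-1(vlt10) and 552, 575 and 633 CPM in nhr-1(vlt16), against 459, 496 and 532 CPM in 40Q. Both single mutants were separate from 40Q, 5 of 6 double mutant libraries lay above all 40Q libraries, and the 3 mutants overlapped with each other.

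The H3.3 genes his-72 and his-71 differed in direction. The gene his-72 ranged over 214.8, 221 and 229 CPM in double mutants, 242, 254 and 257 CPM in unc-1(vlt10) and 211, 217 and 229 CPM in nhr-1(vlt16), against 186, 202 and 216 CPM in 40Q. It rose by 0.32 ± 0.03 in unc-1(vlt10) (adjusted p = 4.27e-10), 0.12 ± 0.03 in nhr-1(vlt16), at an adjusted p of 0.00289, and 0.14 ± 0.03 in the double mutant (adjusted p = 0.00111), and only the unc-1(vlt10) libraries were separate from 40Q. The gene his-71 ranged over 24.8, 25.7 and 27.9 CPM in double mutants, 30.4, 31.98 and 33.5 CPM in unc-1(vlt10) and 21.9, 23.5 and 26.9 CPM in nhr-1(vlt16), against 26.2, 30.5 and 34.7 CPM in 40Q. It fell by 0.36 ± 0.06 in nhr-1(vlt16), at an adjusted p of 3.06e-05, and by 0.23 ± 0.06 in the double mutant (adjusted p = 0.00346), with 4 of 6 libraries of each below all 40Q libraries. In unc-1(vlt10) its value was 0.05 ± 0.06 (adjusted p = 0.509).

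The remaining H3-like genes were his-74 and his-70. The abundant his-74 did not pass against 40Q in any mutant, at 0.05 ± 0.03 in unc-1(vlt10), -0.0073 in nhr-1(vlt16) and -0.04 ± 0.03 in the double mutant (adjusted p = 0.192, 0.875 and 0.396 in that order). The scarce his-70, at 5 to 18 counts a library, fell in nhr-1(vlt16) against 40Q (-0.78 ± 0.28, adjusted p = 0.0248), and DESeq2 gave -0.78 with an adjusted p of 0.0679. The H3-like gene his-69 was left out by the count minimum, with 67 counts over all libraries. Genes for other special histones, taken from a list chosen for this work, included hcp-3, the centromeric H3, which fell only in the double mutant among the 3 mutants set against 40Q (-0.12, adjusted p = 0.00508).

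Among core genes, in nhr-1(vlt16) and in the double mutant set against 40Q, those that rose all had a single exon and those that fell all had introns. This split rests on the annotation alone, and it was made after the values had been seen, so it is given with counts and levels and with no test of its own. Of 23 core genes with 1 exon, 8 rose and 1 fell in unc-1(vlt10) against 40Q, 12 rose and 0 fell in nhr-1(vlt16), and 14 rose and 0 fell in the double mutant, all by edgeR. Those that rose were 34.8%, 52.2% and 60.9% of the 23 genes in that order. Of all tested genes, 25.1%, 20.5% and 14.9% rose in the same comparisons. The share in unc-1(vlt10) was the nearest of the 3 to that over all genes. The median log2 fold changes of the 23 genes were 0.28, 0.41 and 0.43 in that order. Of the 23, 21 had a positive value in nhr-1(vlt16) and 21 in the double mutant. Of 4 core genes with introns, none rose, 3 fell in nhr-1(vlt16) and 2 fell in the double mutant. The fourth, his-57, did not pass and had values of the opposite sign, at 0.70 ± 0.34 in nhr-1(vlt16) (adjusted p = 0.0949, unadjusted p = 0.0466) and 0.52 ± 0.33 in the double mutant (adjusted p = 0.24), with 0.35 ± 0.35 in unc-1(vlt10) (adjusted p = 0.428).

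Of the genes with introns, his-35 (H2A), his-41 (H2B) and his-37 (H4), are neighbours on chromosome V, between positions 9544659 and 9547607 of WBcel235. Each has 2 exons and an annotated 3′ UTR, which none of the 23 single-exon core genes has. The gene his-35 ranged over 61.7, 64.9 and 69.4 CPM in double mutants, 69.3, 71.5 and 77.9 CPM in unc-1(vlt10) and 57.5, 63.2 and 64.2 CPM in nhr-1(vlt16), against 66.8, 73.9 and 82.0 CPM in 40Q. All nhr-1(vlt16) libraries and 4 of 6 double mutant libraries lay below all 40Q libraries. It fell by 0.24 ± 0.04 in nhr-1(vlt16), at an adjusted p of 5.36e-05, and by 0.17 ± 0.04 in the double mutant (adjusted p = 0.00237), while in unc-1(vlt10) its value was -0.02 ± 0.04 (adjusted p = 0.663).

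The neighbour his-41 ranged over 11.5, 13.04 and 13.7 CPM in double mutants, 14.03, 15.2 and 18.1 CPM in unc-1(vlt10) and 11.1, 11.5 and 14.1 CPM in nhr-1(vlt16), against 14.5, 16.2 and 17.3 CPM in 40Q. All double mutant and all nhr-1(vlt16) libraries lay below all 40Q libraries, and the unc-1(vlt10) libraries overlapped with 40Q. It fell by 0.43 ± 0.07 in nhr-1(vlt16), at an adjusted p of 1.1e-05, and by 0.31 ± 0.07 in the double mutant (adjusted p = 0.000651). For his-37, values were 68.3, 70.5 and 76.1 CPM in double mutants, 71.6, 75.2 and 78.9 CPM in unc-1(vlt10) and 65.9, 69.9 and 75.3 CPM in nhr-1(vlt16), against 65.8, 76.4 and 84.3 CPM in 40Q, and all genotypes overlapped. Its value in nhr-1(vlt16) was -0.13 ± 0.05 (adjusted p = 0.0324), and with total counts in place of TMM it was -0.0982 (adjusted p = 0.116). The annotation places C50F4.6 over his-41 on the same strand and nstp-10 over his-37 on the other strand, so reads of these pairs may not be told apart. The gene his-57 shares its annotated name with other copies and had 3 to 21 counts a library.

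A set of single-exon genes on chromosome IV holds one gene for each core histone within positions 7485834 to 7488659, namely his-61 (H2A), his-62 (H2B), his-60 (H4) and his-59 (H3). The gene his-61 ranged over 7.40, 8.06 and 8.97 CPM in double mutants, 6.26, 6.75 and 8.09 CPM in unc-1(vlt10) and 6.67, 7.73 and 8.32 CPM in nhr-1(vlt16), against 4.53, 4.96 and 5.95 CPM in 40Q. All libraries of the 3 mutants lay above all 40Q libraries. It rose by 0.68 ± 0.08 in the double mutant (adjusted p = 1.31e-07), 0.46 ± 0.08 in unc-1(vlt10) (adjusted p = 3.57e-05) and 0.59 ± 0.08 in nhr-1(vlt16) (adjusted p = 2.07e-06).

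Its neighbour his-62 ranged over 3.69, 4.38 and 4.90 CPM in double mutants, 3.14, 3.34 and 3.68 CPM in unc-1(vlt10) and 3.64, 4.57 and 5.04 CPM in nhr-1(vlt16), against 2.23, 2.48 and 3.31 CPM in 40Q. Double mutant and nhr-1(vlt16) libraries were separate from 40Q, and 3 of 6 unc-1(vlt10) libraries lay above all 40Q libraries. The gene rose by 0.72 ± 0.11 in the double mutant (adjusted p = 7.84e-06), 0.36 ± 0.12 in unc-1(vlt10) (adjusted p = 0.0115) and 0.73 ± 0.11 in nhr-1(vlt16) (adjusted p = 6.28e-06). The double mutant was also above unc-1(vlt10), by 0.36 ± 0.11 (adjusted p = 0.00574), with all 6 libraries above. The H3 gene his-59 rose in all 3 mutants, by 0.54 in the double mutant, 0.35 in unc-1(vlt10) and 0.42 in nhr-1(vlt16). The H4 gene his-60 rose in nhr-1(vlt16), by 0.39 ± 0.08 with an adjusted p of 0.000282, and in the double mutant (0.28 ± 0.08, adjusted p = 0.0079), and its value in unc-1(vlt10) was 0.05 ± 0.08 (adjusted p = 0.654).

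Elsewhere on chromosome IV, the H4 gene his-64 ranged over 2.48, 3.08 and 3.17 CPM in double mutants, 1.86, 2.42 and 2.75 CPM in unc-1(vlt10) and 2.43, 3.25 and 3.75 CPM in nhr-1(vlt16), against 1.63, 1.79 and 2.00 CPM in 40Q. Double mutant and nhr-1(vlt16) libraries lay above all 40Q libraries, as did 5 of 6 unc-1(vlt10) libraries. Its log2 fold changes were 0.73 ± 0.12 (adjusted p = 2.76e-05) in the double mutant, 0.40 ± 0.13 (adjusted p = 0.0109) in unc-1(vlt10) and 0.81 ± 0.12 (adjusted p = 5.91e-06) in nhr-1(vlt16). The H3 gene his-32, the highest of its type, rose only in unc-1(vlt10) among the mutants set against 40Q (0.51 ± 0.17, adjusted p = 0.0136).

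The H4 gene his-38, of a single exon on chromosome X, was the only histone gene that fell in unc-1(vlt10) against 40Q. It ranged over 2.37, 3.00 and 4.24 CPM in double mutants, 1.17, 1.71 and 1.86 CPM in unc-1(vlt10) and 2.25, 2.57 and 3.00 CPM in nhr-1(vlt16), against 1.84, 2.30 and 2.91 CPM in 40Q. All double mutant and all nhr-1(vlt16) libraries lay above all unc-1(vlt10) libraries. The log2 fold change was -0.53 ± 0.15 in unc-1(vlt10) against 40Q (adjusted p = 0.00471), 0.43 ± 0.14 in the double mutant against 40Q (adjusted p = 0.018) and 0.96 ± 0.15 in the double mutant against unc-1(vlt10) (adjusted p = 1.83e-06). Its neighbour his-40 (H3) did not pass in any comparison.

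**Figure D4:**
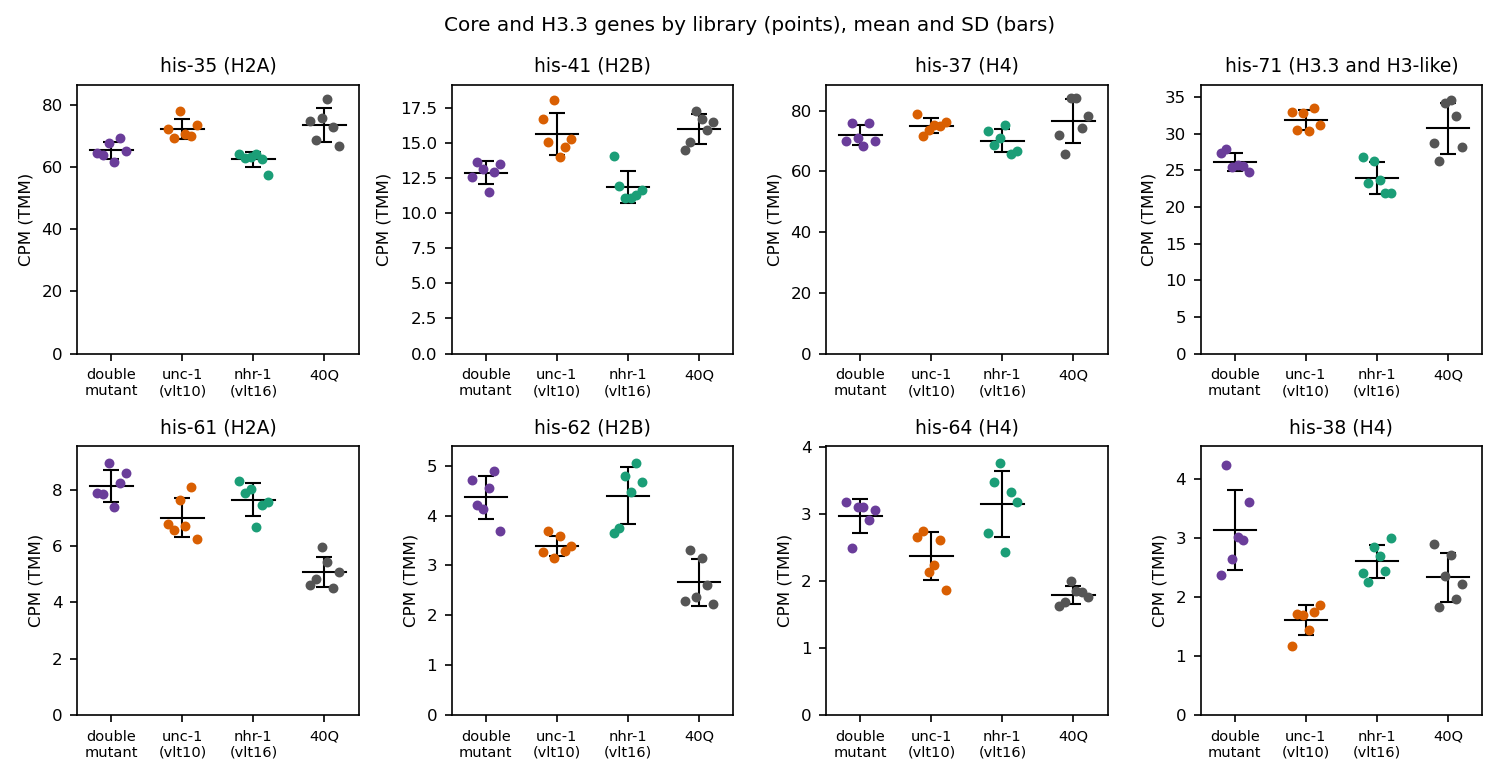
TMM-scaled CPM in each of 6 libraries a genotype (points) with mean and SD (bars) for 4 genes with introns (his-35, his-41, his-37, his-71) and 4 single-exon genes (his-61, his-62, his-64, his-38); genotypes run double mutant, unc-1(vlt10), nhr-1(vlt16), 40Q and axes start at 0. For his-41 the nhr-1(vlt16) points, 11.1 to 14.1 CPM, lie below those of 40Q, 14.5 to 17.3 CPM, and for his-61 all mutant points lie above those of 40Q.

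Summed over the 23 single-exon core genes, counts were 77.4 to 83.6 CPM in double mutants, 68.7 to 73.7 CPM in unc-1(vlt10) and 73.1 to 88.8 CPM in nhr-1(vlt16), against 56.6 to 63.03 CPM in 40Q. All mutant sums lay above all 40Q sums, with ratios of means of 1.35, 1.19 and 1.33 in that order, and all double mutant sums lay above all unc-1(vlt10) sums. Summed over the 4 core genes with introns, counts were 142 to 159 CPM in double mutants, 156 to 169.8 CPM in unc-1(vlt10) and 137 to 152 CPM in nhr-1(vlt16), against 149.9 to 183 CPM in 40Q. These sums overlapped with 40Q in each mutant, and the ratios were 0.906, 0.983 and 0.871.

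**Figure D5:**
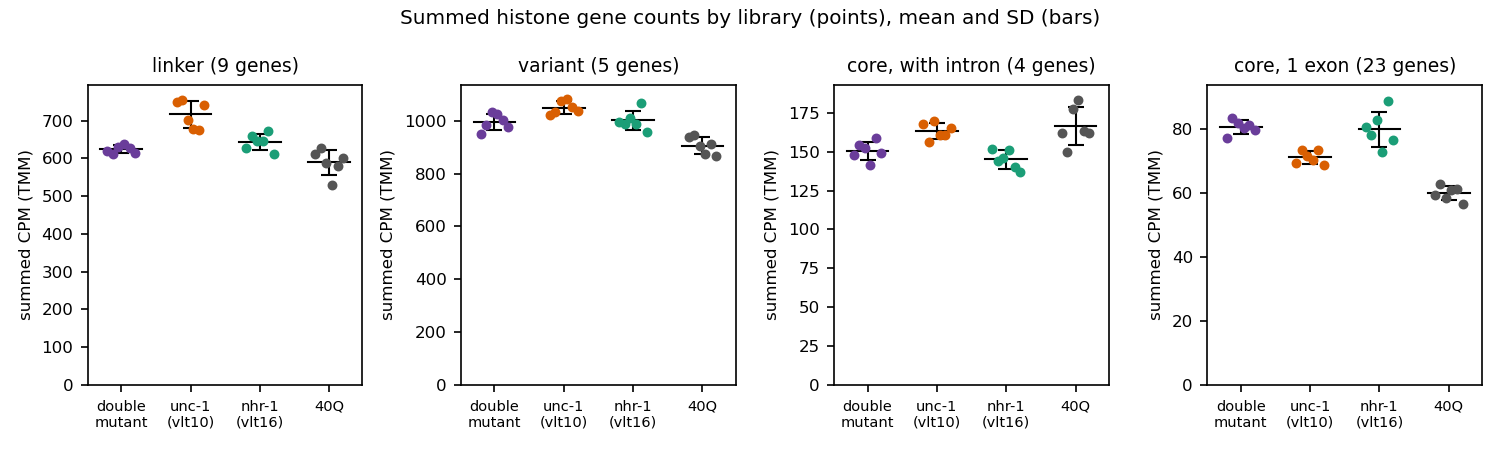
Summed TMM-scaled CPM in each of 6 libraries a genotype (points) with mean and SD (bars) for linker genes, variant genes, core genes with introns and core genes of 1 exon; genotypes run double mutant, unc-1(vlt10), nhr-1(vlt16), 40Q and axes start at 0. The single-exon sums of the 3 mutants, 68.7 to 88.8 CPM, lie above those of 40Q, 56.6 to 63.03 CPM.

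Because the genes with introns hold most of the counts, sums by core type mixed both directions. The H2A sum was 90.1 to 99.98 CPM in double mutants, 96.7 to 106 CPM in unc-1(vlt10) and 84.4 to 93.9 CPM in nhr-1(vlt16), against 86.8 to 104 CPM in 40Q, and all overlapped with 40Q. The gene his-35 supplied 69.2% of it in double mutants, 72.6% in unc-1(vlt10) and 69.5% in nhr-1(vlt16), against 77.8% in 40Q. Without his-35 the H2A sum had a log2 ratio of 0.48 in the double mutant, 0.39 in unc-1(vlt10) and 0.39 in nhr-1(vlt16), against 0.0015, 0.08 and -0.07 with it. The H4 sum, with his-37 as its main gene, had ratios of means of 1.02, 0.998 and 1.01 against 40Q, and the H2B sum 1.01, 1.03 and 0.993. Among the core types, the H3 sum alone has no gene with an intron. It was 12.9 to 15.7 CPM in double mutants, 12.8 to 14.1 CPM in unc-1(vlt10) and 12.2 to 15.3 CPM in nhr-1(vlt16), against 9.78 to 12.4 CPM in 40Q, and all mutant libraries except 1 of nhr-1(vlt16) lay above all 40Q libraries.

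Between the double mutant and nhr-1(vlt16), edgeR found 1 histone gene that rose, hil-7 (0.79 ± 0.20, adjusted p = 0.00621), and 2 that fell, hil-8 (-0.83 ± 0.24, adjusted p = 0.0148) and hil-2 (-0.18 ± 0.05, adjusted p = 0.0152), where 9.47% of all genes rose and 9.54% fell. None of the 41 passed with a fold above 2 by edgeR or DESeq2, where 0.888% of all genes did, and 7 had an unadjusted p below 0.05 with edgeR. The interaction asks whether the unc-1 allele acts differently when the nhr-1 allele is present. It was negative and passed for 14 of the 41 genes (34.1%) and positive for 1, his-38, where 24.1% of all genes were negative and 23.6% positive, 47.7% in all. The negative genes included 7 of 9 linker genes, led by hil-8 at -1.77 ± 0.34 (adjusted p = 8.31e-05), hil-1 at -0.99 ± 0.17 (adjusted p = 1.42e-05) and hil-3 at -0.70 ± 0.09 (adjusted p = 6.8e-08).

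Genes that act around histones, and markers of cells in the animals, were taken from lists chosen for this work. Their counts stand beside the shares over all tested genes, where 25.1% rose and 22.6% fell in unc-1(vlt10), 20.5% rose and 22% fell in nhr-1(vlt16), and 14.9% rose and 17.3% fell in the double mutant against 40Q. Of 5 genes tied to the 3′ end processing of histone mRNA, cdl-1, which encodes the stem-loop binding protein, rose by 0.21 in unc-1(vlt10) (adjusted p = 0.000134) and by 0.15 in nhr-1(vlt16), at an adjusted p of 0.0081, with 0.01 in the double mutant (adjusted p = 0.866). The list gave 2 genes higher and 2 lower in unc-1(vlt10), and 2 higher and 0 lower in each of the other mutants. The Argonaute gene csr-1 was at -0.08 in unc-1(vlt10) (adjusted p = 0.0458) and did not pass in the other mutants. Of 11 histone chaperone genes measured, 6 rose and 1 fell in unc-1(vlt10), 7 rose and 1 fell in nhr-1(vlt16), and 4 rose and 1 fell in the double mutant. The chromatin remodeller gene xnp-1 had the lowest p among those that rose in nhr-1(vlt16), where it was at 0.28 with an adjusted p of 1.26e-05, and in the double mutant (0.26, adjusted p = 3.54e-05), and lin-53, whose product binds histones, in unc-1(vlt10) (0.23, adjusted p = 1.6e-07). The gene that fell in each was nap-1, which encodes an H2A and H2B chaperone.

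Of 34 DNA replication genes, 25 rose and 0 fell in unc-1(vlt10), 26 rose and 0 fell in nhr-1(vlt16), and 9 rose and 1 fell in the double mutant, with medians of 0.12, 0.13 and 0.04. The sliding clamp gene pcn-1 was at 0.21, 0.21 and 0.05, and the helicase genes mcm-2 to mcm-7 lay between 0.04 and 0.17, 0.13 and 0.17, and -0.05 and 0.04. The ribonucleotide reductase gene rnr-1 was at 0.21, 0.23 and 0.09, and rnr-2 at 0.08, 0.13 and 0.07. Of 17 cell cycle genes, 6, 11 and 1 rose in the same order, and none fell.

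Of 7 early embryo markers tested, 4 rose in unc-1(vlt10), 6 in nhr-1(vlt16) and 2 in the double mutant, and none fell, with sdz-28 at 0.54, 0.60 and 0.44. The scarce markers med-1 and med-2 were not tested, and their means were lower in each mutant than in 40Q. In nhr-1(vlt16) they were at 0.0395 and 0.0691 CPM, against 0.128 and 0.225 CPM in 40Q. The summed level of all 9 embryo markers was 26.4 to 30.7 CPM in double mutants, 28.97 to 37.8 CPM in unc-1(vlt10) and 29.6 to 35.9 CPM in nhr-1(vlt16), against 16.7 to 27.4 CPM in 40Q, and sdz-28 supplied 51.1% to 54.5% of it. Of 10 sperm markers tested, 0, 9 and 3 fell and none rose, with msp-31, one of many near-identical sperm protein genes, at -0.08, -0.90 and -0.42. Their sum, over all 12 genes, was 56.9 to 68.03 CPM in double mutants, 70.1 to 79.9 CPM in unc-1(vlt10) and 36.9 to 44.7 CPM in nhr-1(vlt16), against 62.8 to 94.4 CPM in 40Q. Of 6 other histone-like and sperm chromatin genes, 1 rose and 1 fell in unc-1(vlt10), 4 fell in nhr-1(vlt16) and 2 in the double mutant, among them in nhr-1(vlt16) the gene spch-1 (-0.76, adjusted p = 2.14e-06).

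Of 17 germ cell and oocyte markers, 7 rose and 4 fell in unc-1(vlt10), 7 rose and 1 fell in nhr-1(vlt16), and 1 rose and 2 fell in the double mutant. These are 41.2% higher and 23.5% lower, 41.2% higher and 5.88% lower, and 5.88% higher and 11.8% lower. The shares that rose in the single mutants were above those over all genes, and the others were near or below them. Their sum was 9412 to 10449 CPM in double mutants, 10199 to 10634 CPM in unc-1(vlt10) and 10431 to 11625 CPM in nhr-1(vlt16), against 9724 to 10630.3 CPM in 40Q. Of 8 moult markers, 2 rose and 1 fell in unc-1(vlt10), 1 rose in nhr-1(vlt16) and 4 rose in the double mutant, with a sum of 91.5 to 109 CPM in double mutants, 80.4 to 108 CPM in unc-1(vlt10) and 72.1 to 95.4 CPM in nhr-1(vlt16), against 68.3 to 91.4 CPM in 40Q. The shares of moult markers that rose, 25%, 12.5% and 50% in the same order, were near or below those over all genes in both single mutants. Of 10 somatic markers, 6, 6 and 7 fell in the same order and 2, 0 and 0 rose, with the muscle myosin gene unc-54 at -0.50, -0.38 and -0.35. Their sum was 13390.3 to 17643 CPM in double mutants, 14433 to 16338 CPM in unc-1(vlt10) and 15419 to 17525 CPM in nhr-1(vlt16), all below 18516 to 20918 CPM in 40Q. The yolk protein gene vit-2 supplied 80.1% to 82.1% of this sum in each genotype. Without it the sum of the other 9 genes was 2740.2 to 3483 CPM in double mutants, 2786 to 3121 CPM in unc-1(vlt10) and 2883 to 3123 CPM in nhr-1(vlt16), against 3532 to 4109 CPM in 40Q, and the mutants did not overlap with 40Q. No listed marker was at 0 counts throughout a genotype. The part of embryos, sperm and growth stage in the histone values was not tested, and in RNA of whole animals fewer cells of a type and less RNA per cell cannot be told apart.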

How the data were processed

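The authors aligned reads to WBcel235 and counted them per gene. Per the submitters' processing notes they used HISAT2 2.0.5, HTSeq 0.6.1 and DESeq2 1.24.0. The deposited tables hold raw counts and FPKM values, and the tables of the authors' own fold changes and p-values were not used. Strand and multi-mapping settings are not given in the sources used here. Counts were tested with edgeR 4.0.16 (R 4.3.3), with TMM scaling, filterByExpr, a quasi-likelihood fit of all 24 libraries with genotype as the only term, and Benjamini-Hochberg adjustment over 14865 genes. Genes were called at adjusted p below 0.05 and a fold above 2. SE is the log2 fold change divided by the root of F. Sums by type are described with no test. FPKM values were used as deposited. The fit was tested on simulated data. Positions and exons came from the Ensembl annotation of WBcel235. The members, types and lists were chosen with earlier results of these data known. The histone genes named were those called, the 3 of lowest p in each direction and comparison, the one of highest FPKM in each type, and the linker and variant genes. In the other lists cdl-1, csr-1, hcp-3, pcn-1, the mcm and rnr genes and the genes of lowest p were named. The genes his-2, his-8, his-25, his-40, his-45, his-47, his-57, his-59, his-66, his-68, his-73, med-1, med-2, myo-3 and vit-2 were named after their values were seen. Of 131 listed genes, 2 symbols did not match. Alternatives were DESeq2 1.42.0, other scalings and filters, a replicate block and fits of the genotypes compared. The libraries left out one at a time were chosen after seeing the data. The replicates are described as biological, but not as separate cultures, so p-values measure the spread between these samples, which may be technical.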

Additional observations from a re-analysis of the deposited data

Results flagged for a closer look

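In 132 groups of 6 libraries (named genes and sums), 4 held a library set apart from the other 5 by more than the 95% critical value of Dixon's ratio, and chance flags about 1 in 20 such groups. They were his-35 in nhr-1(vlt16) replicate 6 (57.5 CPM, low), his-41 in nhr-1(vlt16) replicate 1 (14.1 CPM, high), his-70 in double mutant replicate 1 (0.656 CPM, high) and the H2A sum in unc-1(vlt10) replicate 3 (106 CPM, high).

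The change with the unc-1 allele differed between animals with and without the nhr-1 allele for 13 named genes. This used the interaction term of edgeR at adjusted p below 0.05, which 47.7% of all tested genes passed. Over all 41 histone genes 15 passed. Genes were named in part for a low p in this term, so the count of 13 is raised by that choice. Among linker genes the log2 difference was -0.99 for hil-1, -0.57 for hil-2, -0.70 for hil-3, -0.26 for hil-4, -0.20 for hil-5, -1.77 for hil-8 and -0.50 for his-24. Among variants it was -0.30 for his-72 and -0.25 for htz-1. Among core genes it was -0.75 for his-32, -0.37 for his-61, -0.48 for his-64 and 0.81 for his-38, the only positive one.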

How the results depend on the processing

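Without the fold requirement the counts of called histone genes were 20 in unc-1(vlt10), 24 in nhr-1(vlt16) and 21 in the double mutant against 40Q, 19 in the double mutant against unc-1(vlt10), 3 against nhr-1(vlt16) and 15 in the interaction. With total counts in place of TMM, 1 gene was called in unc-1(vlt10) against 40Q, 2 in the double mutant against unc-1(vlt10) and 2 in the interaction, and a filter of 1 CPM in 6 libraries also gave 2 in the double mutant against unc-1(vlt10). Total counts gave the H3.3 and H3-like sum a log2 ratio of 0.247 in unc-1(vlt10) and 0.0858 in the double mutant. Without its most abundant gene, the log2 ratio against 40Q in unc-1(vlt10), nhr-1(vlt16) and the double mutant was 0.39, 0.39 and 0.48 for H2A, 0.18, 0.53 and 0.46 for H2B, 0.0932, 0.46 and 0.40 for H4 and 0.0513, -0.0550 and -0.0647 for H3.3 and H3-like, and it was 0.15 for H1 in the double mutant. The cause was not tested beyond the sums' own make-up. The alternative runs were checked for up to 78 values of named genes, not for every named gene in every comparison. None of these gene values changed direction. Some sums did when their most abundant gene was left out. With that gene, the H3.3 and H3-like log2 ratio against 40Q was 0.0323 in nhr-1(vlt16) and 0.0368 in the double mutant. The H2A and H2B ratios in nhr-1(vlt16) were -0.0722 and -0.0106 with it, and the H4 ratio in unc-1(vlt10) was -0.00236. The replicate block kept the called counts at 0, 0, 1, 1, 0 and 1 in the 6 comparisons in the order above, and hil-7 in nhr-1(vlt16) against 40Q then had a log2 fold change of 0.59 and an adjusted p of 0.0545. The replicate numbers gave no sign of pairing, with same-number correlations over 36 pairs from -0.147 to 0.166. Such correlations cannot show how the samples were handled. Without nhr-1(vlt16) replicate 1, 5 or 6 the nhr-1(vlt16) comparison against 40Q had 23, 21 and 20 genes below the adjusted p, and without double mutant replicate 1 the double mutant comparison had 18. Genes under about 1 CPM, such as his-57 and his-70, are limited by counts of 21 or fewer a library.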
